A study of Rattus norvegicus with 24 samples.

Results

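The Fc gamma receptors bind the constant part of IgG and pass antibody recognition on to the cell that carries them. In rodents *Fcgr1* encodes the high affinity receptor, *Fcgr3* and *Fcgr3a* encode activating receptors of low to intermediate affinity, and *Fcgr2b* encodes the inhibitory receptor of the family. The activating receptors are found mainly on macrophages, monocytes, neutrophils and NK cells and signal through adaptors with an immunoreceptor tyrosine-based activation motif (ITAM), whereas the cytoplasmic part of *Fcgr2b* carries an inhibitory motif and recruits the lipid phosphatase encoded by *Inpp5d*. *Fcgrt* encodes the neonatal Fc receptor, which is related to MHC class I molecules and rescues IgG from degradation.

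The members were all non-control probes of the array named *Fcgr1*, *Fcgr1a*, *Fcgr2a*, *Fcgr2b*, *Fcgr3*, *Fcgr3a*, *Fcgrt* or *Fcer1g*, and those that the study's supplement lists as *LOC498277*. Probes were found under 5 of these 8 names, and both *LOC498277* probes carry the name *Fcgr3* in the scanner files. This gave 8 of the 8453 probes on the array and 5 of 7249 genes, with 24 of the 15208 probe spots. The rule sets no threshold on a measured value. *LOC498277* was taken from the study's list of regulated genes in these data, but both its probes also enter by the name *Fcgr3*.

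Each of 12 male BN rats aged 15 weeks gave 2 skin explants for the arrays. The first was cultured for 3 days with syngeneic BN lymphocytes and the other with allogeneic PVG lymphocytes, both taken from spleens and first stimulated with irradiated BN spleen cells for 7 days (mixed lymphocyte reaction, MLR), as a model of the graft versus host reaction. The 2 RNA samples of a rat were hybridized together to 2 two-color Agilent arrays, the first carrying the allogeneic RNA in Cy5 and the second in Cy3, so that there were 24 arrays on 3 slides and n is 12 rats. Both groups hold BN skin, and they differ in the strain of the added lymphocytes as well as in the alloreaction, which cannot be told apart. An explant is a mixture of skin cells and attached or infiltrating lymphocytes, and in such bulk RNA fewer cells of a type and less RNA per cell cannot be told apart either. The 3 keratinocyte markers on the array (*Dsc3*, *Tp63*, *Cdh1*) were well above background in both samples on all 24 arrays.

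The 8 probes are 60-mers, and the file headers give their position on the rat genome build rn3. No annotation of that build was used here, so that exon and UTR boundaries are not given. The sequences are shown because the receptors of this family resemble each other, so that the extent of shared sequence bears on the comparison between genes. Capitals mark the longest run of bases that the stretch shown has in common with a probe of another member gene.

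Fcgr3a (A_42_P798429, first 30 bases): tttgttgtttgtttgtctctctccAATGGA

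Fcgr2b (A_42_P735417): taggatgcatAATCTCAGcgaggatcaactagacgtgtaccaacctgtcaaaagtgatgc

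Fcgr3 (A_44_P168405): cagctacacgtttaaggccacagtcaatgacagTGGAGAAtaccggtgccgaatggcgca

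Fcgr3 (A_44_P482476): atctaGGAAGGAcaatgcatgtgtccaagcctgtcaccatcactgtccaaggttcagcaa

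Fcgr1 (A_44_P189496): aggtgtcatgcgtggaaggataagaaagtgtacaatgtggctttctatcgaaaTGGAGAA

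Over the 28 pairs of member probes the longest shared run was 8 bases on the same strand and 9 bases on the opposite strand. The probes were compared only with each other. Their match to the transcripts of the other genes was not examined, so that these runs do not measure how specific a probe is. The *Fcgr3a* probe lies at chr13:86891609-86891668 on the plus strand. The *Fcgr2b* probe lies at chr13:86823279-86823338 and the *Fcgr3* probe A_44_P168405 at chr13:86920151-86920210, both on the minus strand. The *Fcgr3* probe A_44_P482476 is given a span of 1885 bases, chr13:86935496-86937380, and for the third *Fcgr3* probe, A_43_P12955, the header places 19 bases at chr13:86912721-86912739. These last 2 probes are the ones listed as *LOC498277*. The accession of A_44_P168405 is named *Fcgr2a* in the current RefSeq table. The *Fcgr1* probes lie at chr2:191057799-191057858 (A_43_P15904) and chr2:191061793-191061852 (A_44_P189496), and the *Fcgrt* probe lies at chr1:95644885-95644944, all on the minus strand. All 8 probes were well above background in both samples on all 24 arrays, and none of their spots was saturated.

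One rat and one array stood apart from the rest and are followed through the results. In rat 8 the SD of the log2 ratios over all probes was 0.710, against 0.210 to 0.385 in the other 11 rats, although its own 2 arrays correlated with r = 0.94 over probes. The first array of rat 10 had a median Cy3 intensity of 6668, against a median of 179 over the 24 arrays, and its log2 ratios correlated with those of the second array of the same rat by only r = 0.13.

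Log2-fold changes are given as allogeneic over syngeneic, with the direction taken from the dye labels of the samples. The methods pair Cy3 with syngeneic and Cy5 with allogeneic RNA. In a dye-swap design this can hold for only part of the arrays, which the methods do not name, so it does not settle the labels. Under the dye labels the activating and inhibitory Fc gamma receptors were lower in the allogeneic explants. The tables of the study list *Fcgr3a*, *Fcgr2b* and *LOC498277* with the opposite sign and with larger log2-fold changes than found here. The cause of the difference in size was not tested. The quantitative PCR of the study covered other genes in part of the same sample pairs. It matched the sign of the study's own array results for nearly all of them, and for *Aif1*, among others, runs opposite to the dye labels. *Aif1* was also reported as higher in further explants and in diseased skin of transplanted rats. The direction is therefore not settled, and each "lower" or "higher" below is that of the dye labels and would read the other way with all signs turned, while sizes, p-values and differences in size between genes would not change. Of the 8 member probes 7 were significantly lower at an adjusted p under 0.05 (limma, Benjamini-Hochberg over 8453 probes) and none was higher, where 17.3% of all probes passed in either direction, 8.48% lower and 8.78% higher. By gene, 4 of 5 were significantly lower, against 7.59% of 7249 genes. The exception was *Fcgrt*. A decrease by at least 50% (a log2-fold change of -1 or less) was seen for 2 of the 8 probes and for 0.651% of all probes. A significant increase of the same size was seen for 0% of probes (0 by limma, 0 at an unadjusted p under 0.05).

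*Fcgr3a*, which encodes an activating receptor of NK cells and macrophages, showed the largest change of the family. Its log2 ratio was -2.75 in the lowest rat, -2.18 at the median and -1.42 in the highest, so that it was negative in 12 of 12 rats, as for 3.55% of all probes, where 2.64% were positive in all 12. The mean was -2.19 ± 0.40 (SD, n = 12), a 4.55-fold lower level in the allogeneic explants (limma, adjusted p = 4.68e-07 over probes). This probe had the smallest p-value of the 8453 probes and ranked number 9 in size among the decreases under the dye labels. As a channel level, *Fcgr3a* had a log2 intensity of 9.42, 11.07 and 12.32 (lowest, median and highest) in the syngeneic explants and of 7.70, 8.86 and 9.65 in the allogeneic explants. The groups overlapped, but 10 of the 12 allogeneic explants lay below the lowest syngeneic one, which came from rat 10. Allogeneic levels entirely below the syngeneic ones were found for 0.13% of all probes, levels entirely above for 0.0237%, and neither for any member. The decrease of *Fcgr3a* was of like size on each slide, with means of -2.18, -2.39 and -1.99 (n = 4 rats each), and it was -2.14 ± 0.38 without rat 8.

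**Figure D1:**
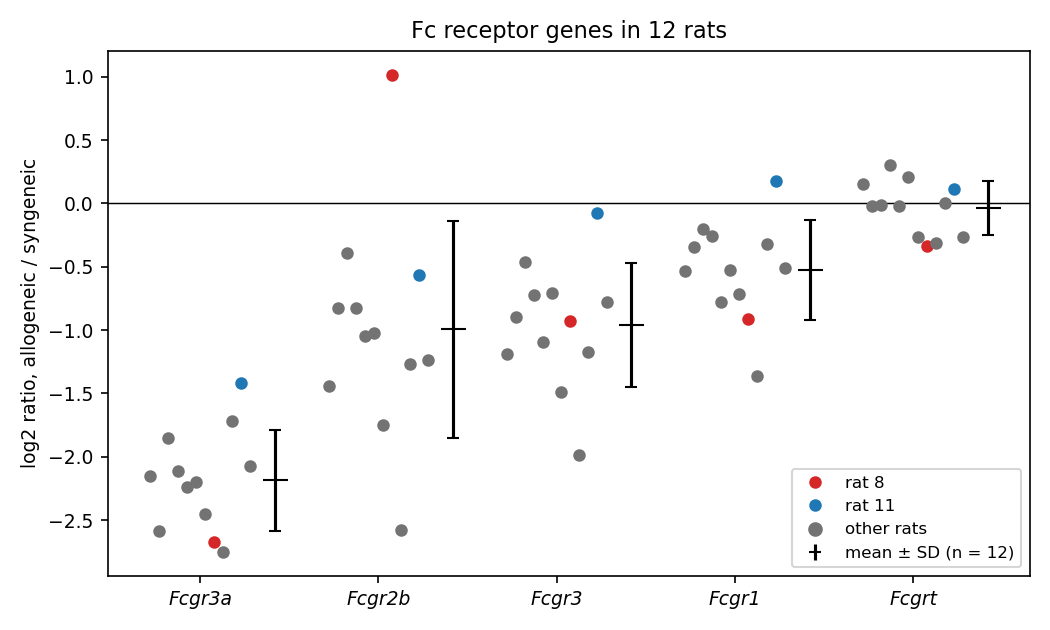
Log2 ratio of allogeneic over syngeneic explants for the 5 member genes, one point per rat (mean of its 2 arrays and of the probes of the gene), with mean ± SD over 12 rats. All rats lie below 0 for Fcgr3a and Fcgr3, rat 8 (red) is the only rat above 0 for Fcgr2b at 1.02, and rat 11 (blue) is the highest for Fcgr3a, Fcgr3 and Fcgr1.

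*Fcgr2b*, the inhibitory receptor, was lower in 11 of 12 rats. Its log2 ratio was -2.58 in the lowest rat, -1.04 at the median and 1.02 in the highest, which was rat 8. The mean was -0.99 ± 0.86 (SD, n = 12) with an adjusted p of 0.0109 (limma over genes). Both arrays of rat 8 gave the same sign, with 1.11 and 0.92. A log2 ratio above 1 in rat 8 was common on the array (11.4% of probes). Together with negative values in the other 11 rats it was found for 0.402% of probes (34). Probes negative in all 12 rats were themselves few (3.55%, 300 probes), so the smaller share does not mark *Fcgr2b* as unusual. Without rat 8 the decrease of *Fcgr2b* was -1.18 ± 0.60 (n = 11, adjusted p = 0.000425). In log2 intensity the syngeneic explants ranged from 12.90 to 15.33 (median 14.49) and the allogeneic ones from 12.68 to 14.08 (median 13.38). The lowest syngeneic level was that of rat 8, whose allogeneic level of 13.91 lay within the range of the other allogeneic explants. None of the other member genes had a positive value in rat 8.

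*Fcgr3*, an activating low affinity receptor measured by 3 probes, was lower in 12 of 12 rats. The mean of its probes was -1.99 in the lowest rat, -0.91 at the median and -0.08 in the highest, rat 11, with a mean over rats of -0.96 ± 0.49 (SD, n = 12; limma, adjusted p = 0.000478). By probe the log2-fold change was -1.12 ± 0.57 for A_43_P12955, -0.91 ± 0.47 for A_44_P482476 and -0.84 ± 0.46 for A_44_P168405. The latter 2 differed by only 0.07 ± 0.08 and correlated with r = 0.99 over the 12 rats, as a description of probes read on the same arrays. A_43_P12955 was lower than A_44_P168405 in 11 of 12 rats, by -0.28 ± 0.22. Its first 30 bases are shown because its change differed from that of A_44_P168405.

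Fcgr3 (A_43_P12955, first 30 bases): tggtGGCACAgtttttatccaggacacatg

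The *LOC498277* probes together gave -1.02 ± 0.51 (adjusted p = 0.000444), with values from -2.06 to -0.06 and 12 of 12 rats lower. The *Fcgr3* log2 intensity ranged from 13.13 to 14.64 (median 14.09) in syngeneic and from 12.11 to 13.46 (median 13.23) in allogeneic explants, and 10 of 12 syngeneic explants lay above the highest allogeneic one.

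*Fcgr1*, the high affinity receptor, showed a smaller decrease. Its log2 ratio was -1.37 in the lowest rat, -0.52 at the median and 0.18 in the highest, rat 11, the only rat above 0. The mean was -0.52 ± 0.39 (SD, n = 12; limma, adjusted p = 0.00524), a level 1.44-fold lower, and its probes gave -0.54 ± 0.47 and -0.51 ± 0.34. The log2 intensity overlapped broadly, with 9.63 to 11.58 in syngeneic and 9.48 to 11.26 in allogeneic explants. The highest level in each group was that of rat 10, whose first array stood apart.

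*Fcgrt*, the neonatal receptor, did not pass the test. Its log2 ratio was -0.33 in the lowest rat, -0.02 at the median and 0.31 in the highest, with 7 of 12 rats below 0 and a mean of -0.04 ± 0.21 (SD, n = 12; limma, adjusted p = 0.725). Its levels covered nearly the same range in both groups, 10.29 to 14.17 in syngeneic and 10.29 to 13.88 in allogeneic explants, with rat 10 as the lowest in each.

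**Figure D2:**
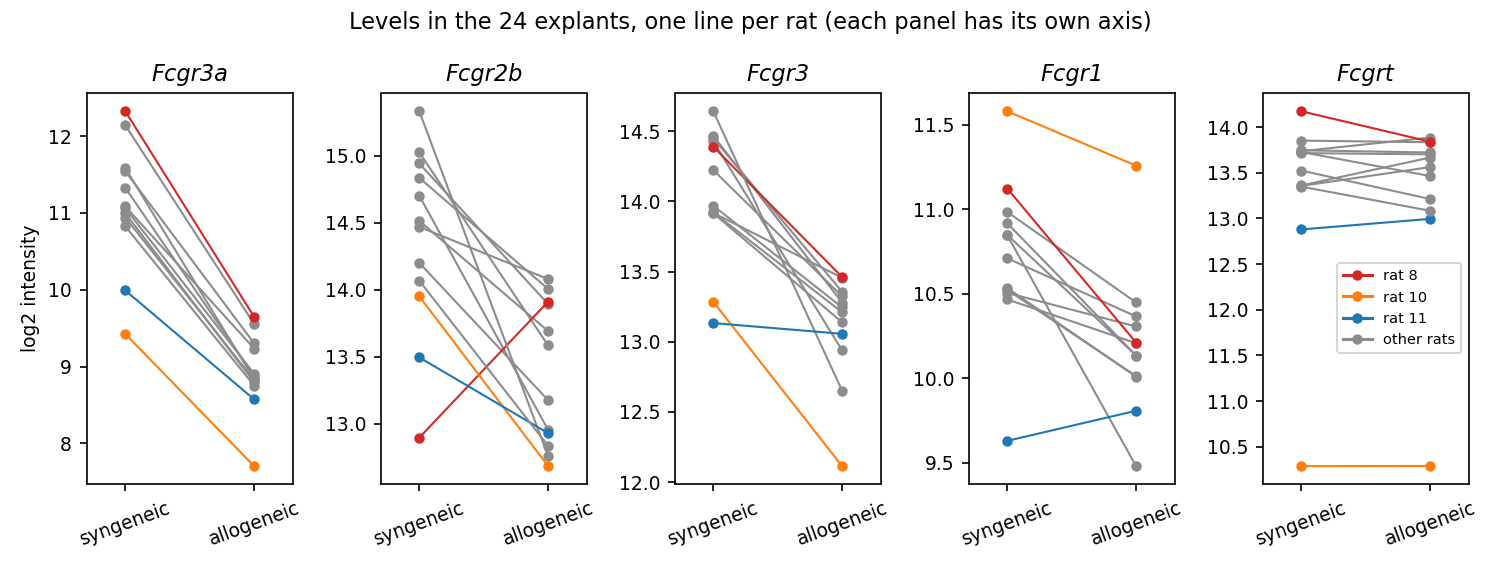
Log2 intensity of the 5 member genes in the syngeneic and allogeneic explant of each rat, after normalization of the average intensity across arrays, one line per rat and a separate axis for each gene. Every line falls for Fcgr3a and Fcgr3, the line of rat 8 rises for Fcgr2b, and rat 10, whose first array was far brighter than the rest, has the lowest levels of Fcgrt and Fcgr3a in both explants.

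The sizes of these changes were compared within rats for all 10 pairs of member genes, by exact two-sided permutation of the signs over 12 rats and adjustment over the 10 pairs. The smallest p this design allows is 0.000488. The genes were read by different probes at different intensities, and the part of this in the differences was not tested. The decrease of *Fcgr3a* exceeded that of every other member in 12 of 12 rats. It was larger than that of *Fcgr3* by 1.23 ± 0.36, than that of *Fcgr2b* by 1.19 ± 0.90 and than that of *Fcgr1* by 1.66 ± 0.23 on the log2 scale, each with an exact p of 0.000488 and an adjusted p of 0.000814. *Fcgr3* fell more than *Fcgr1*, by 0.44 ± 0.26 in 12 of 12 rats (exact permutation test, adjusted p = 0.000814). The 4 lower genes each differed from *Fcgrt*, with adjusted p-values of 0.000814 (*Fcgr3a* and *Fcgr3*), 0.00140 (*Fcgr1*) and 0.00793 (*Fcgr2b*) by the same exact test.

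The 2 remaining pairs both involved *Fcgr2b*. *Fcgr2b* and *Fcgr3* differed by -0.04 ± 0.66 (95% interval of the difference -0.46 to 0.38; exact permutation test over 12 rats, adjusted p = 0.935), and *Fcgr1* exceeded *Fcgr2b* by 0.47 ± 0.81 (interval -0.05 to 0.99, adjusted p = 0.0770). With all 12 rats the latter passed in some other fits, namely with rat as a block over 24 arrays (limma, adjusted p = 0.0119), by the exact signed-rank test (adjusted p = 0.0380) and with median centring in place of loess (exact permutation test, adjusted p = 0.0315). Without rat 8 *Fcgr2b* lay below *Fcgr3* by -0.22 ± 0.23 (exact permutation test over 11 rats, adjusted p = 0.0156) and *Fcgr1* above *Fcgr2b* by 0.69 ± 0.32 (adjusted p = 0.00122), so that all 10 pairs passed. The order of the mean decreases was *Fcgr3a*, *Fcgr2b*, *Fcgr3*, *Fcgr1* and *Fcgrt*, where *Fcgr2b* and *Fcgr3* did not differ beyond the spread with all 12 rats, and the call for *Fcgr2b* against *Fcgr1* depended on the fit.

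The members also varied together over rats, as a description of genes read on the same arrays. The log2 ratios of *Fcgr1* and *Fcgr3* correlated with r = 0.85 over 12 rats and those of *Fcgr1* and *Fcgr3a* with r = 0.83. *Fcgr2b* and *Fcgr3* gave r = 0.64 with all rats and r = 0.93 without rat 8, and *Fcgr2b* and *Fcgr3a* gave r = 0.11 and r = 0.65. Rat 9 had the largest decrease and rat 11 the smallest for *Fcgr1*, *Fcgr3* and *Fcgr3a*.

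The 8 genes outside the family whose log2 ratios followed the mean of the 5 members most closely over the 12 rats were *Aif1* (r = 0.93), *Pik3ap1* (0.92), *Igf1* (0.91), *Itgb2* (0.90), *Pdcd2* (0.89), *Ctss*, *Or5b123b* and *Emb* (0.88 each). Spearman's rho for them lay between 0.71 and 0.90. Without rats 9 and 11, the farthest from the median, r fell to 0.59 for *Itgb2*, 0.62 for *Ctss* and 0.83 for *Igf1*, so that part of the likeness rested on those 2 rats. *Aif1*, a calcium-binding protein of macrophages, was lower by -1.27 and *Ctss*, a lysosomal cysteine protease of antigen presenting cells, by -1.40, each in 12 of 12 rats under the dye labels, a direction that for *Aif1* is opposite to the PCR of the study. *Pdcd2* was at -0.05 and did not pass the test (adjusted p = 0.277).

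Both dye orientations gave the same direction for each of the 4 lower genes. *Fcgr3a* was at -1.93 ± 0.56 where the allogeneic RNA was in Cy5 and at -2.44 ± 0.39 where it was in Cy3 (SD, n = 12 rats each). *Fcgr2b* was at -0.86 ± 0.84 and -1.13 ± 0.87, *Fcgr3* at -0.86 ± 0.49 and -1.05 ± 0.50, and *Fcgr1* at -0.48 ± 0.44 and -0.57 ± 0.39. The size of the change differed between the orientations for 4 of the 5 genes at an adjusted p under 0.05 (limma on the difference within rats), as for 52% of all genes and 52% of all probes. In rat 10 the bright first array read *Fcgr3a* at -0.61 and the second at -2.83.

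**Figure D3:**
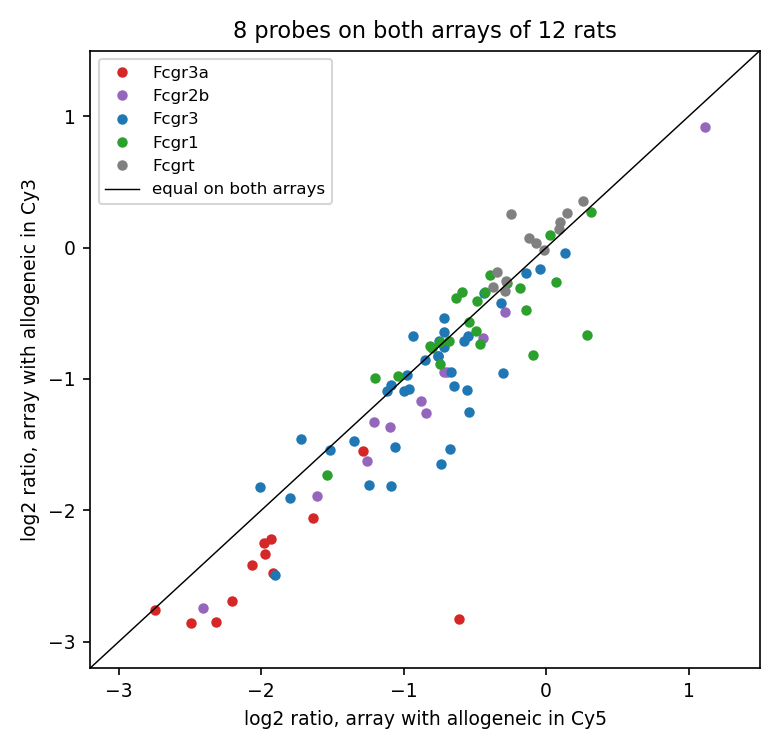
Log2 ratio (allogeneic over syngeneic) of the 8 member probes in each of 12 rats with the allogeneic RNA in Cy5 (x axis) against the array with it in Cy3 (y axis), colored by gene, with the line of equal values. The points follow the line, all Fcgr3a and Fcgr2b points lie below it, and the Fcgr3a point far to the right of the others at -0.61 and -2.83 is rat 10.

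Signalling genes were taken from 5 lists. These held ITAM adaptors, Src-family kinases, Syk and its downstream genes, inhibitory enzymes, and phagocytosis and oxidase genes. The lists were not limited to partners of the Fc gamma receptors. Of 49 listed genes 35 were on the array, of which 16 were significantly lower, 3 were higher and 16 did not pass, where 7.59% of all genes were significantly lower and 8.65% higher. The median log2-fold change was -0.10, against 0.01 over all genes. Without rat 8 the counts were 16 lower and 4 higher.

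Among the adaptors, *Tyrobp*, which encodes DAP12, was lower by -0.71 ± 0.32 in 12 of 12 rats (limma over genes, adjusted p = 0.000235), and *Cd247*, the CD3 zeta chain, was at -0.07 ± 0.16 (adjusted p = 0.289). Whether the members use DAP12 was not examined. No probe named *Fcer1g*, the gene of the common Fc receptor gamma chain, was found. A probe that the files describe as similar to that chain (*LOC498279*), chosen after its value was seen, was lower by -0.52 ± 0.35 in 12 of 12 rats (adjusted p = 0.00302).

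Among the Src-family kinases, which phosphorylate the ITAM, *Lyn* was lower by -0.39 ± 0.18 in 12 of 12 rats (limma over genes, adjusted p = 0.000294). *Fgr* (-0.18), *Fyn* (-0.07), *Src* (-0.02) and *Yes1* (0.08) did not pass the test. *Syk*, the kinase that binds the phosphorylated ITAM, was lower by -0.46 ± 0.23 (adjusted p = 0.000464).

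Downstream of Syk, 6 further genes were significantly lower, of which *Rac1* (-0.11 ± 0.11) and *Pik3cg* (-0.10 ± 0.05) changed least. *Pik3cg* was well above background in only 8 allogeneic and 13 syngeneic samples of the 24 arrays. The largest decreases were those of *Vav1*, a guanine nucleotide exchange factor, by -0.85 ± 0.50, of the adaptor *Lcp2* (SLP-76) by -0.78 ± 0.47 and of the kinase *Btk* by -0.40 ± 0.33. *Plcg2*, the phospholipase C gamma isoform of myeloid and B cells, was lower by -0.24 ± 0.12 in 12 of 12 rats, whereas its broadly expressed relative *Plcg1* was higher by 0.29 ± 0.14 in 12 of 12 rats. *Vav2*, a broadly expressed relative of *Vav1*, was higher by 0.10 ± 0.06. *Pik3cd* (-0.06), *Lat* (-0.08), *Prkcd* (-0.34) and *Cdc42* (0.18) did not pass.

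Of 7 genes on the inhibitory side, 3 were lower. *Inpp5d*, which encodes the SHIP-1 phosphatase recruited by *Fcgr2b*, was lower by -0.49 ± 0.21 and *Ptpn6* (SHP-1) by -0.41 ± 0.23, both in 12 of 12 rats, and the adaptor *Dok1* by -0.26 ± 0.20. Their relatives *Inppl1* (-0.04) and *Ptpn11* (-0.01) did not pass the test, and neither did *Csk* (0.01) and *Cblb* (0.13). Of 4 phagocytosis and oxidase genes, *Itgb2* (-1.11 ± 0.54), *Ncf1*, the p47 subunit of the NADPH oxidase (-1.07 ± 0.38), and *Itgam* (-0.60 ± 0.40) were lower in 12 of 12 rats, and the actin-severing *Gsn* was higher by 0.46 ± 0.31.

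**Figure D4:**
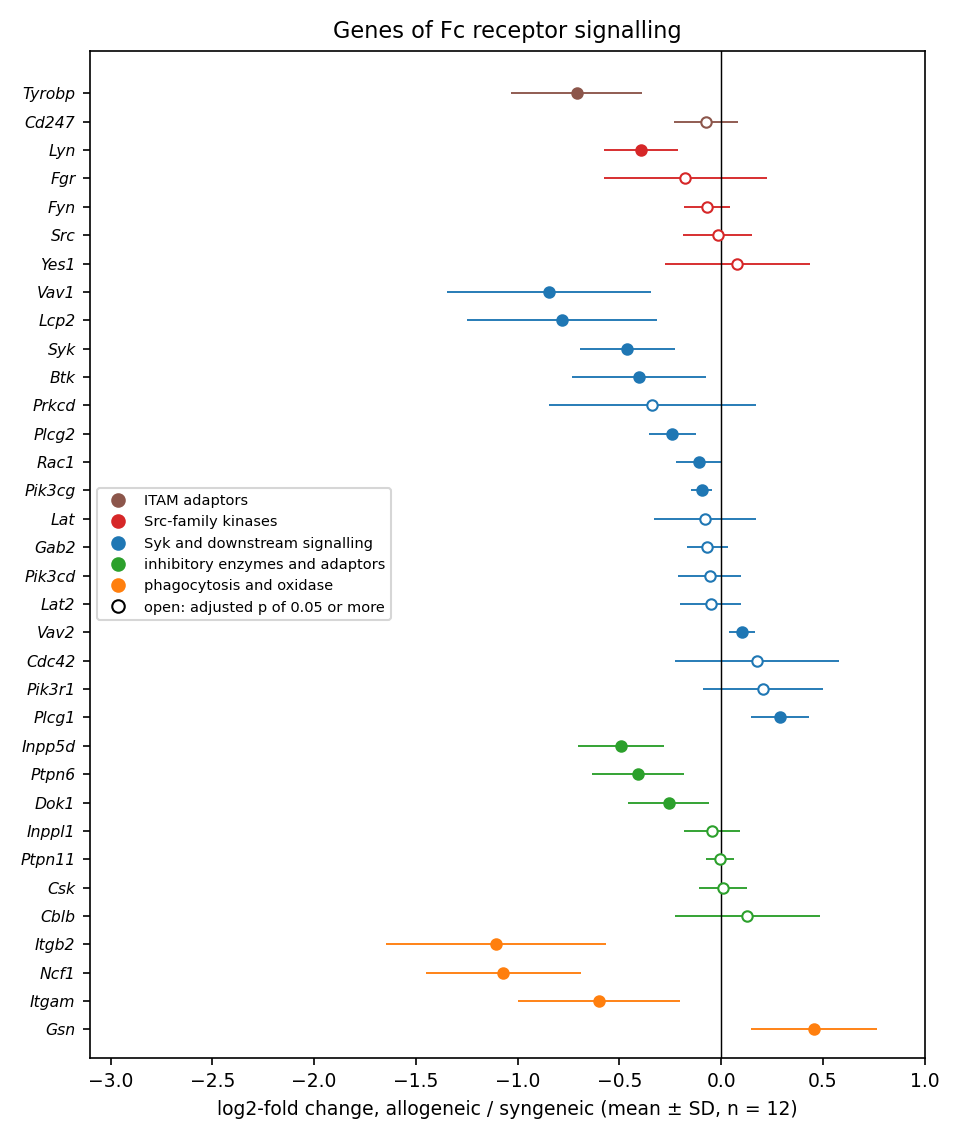
Log2-fold change (allogeneic over syngeneic, mean ± SD over 12 rats) of genes of the 5 signalling lists, colored by list, with filled points for an adjusted p under 0.05 and open points otherwise. Not every gene of the lists is drawn. Among those shown, Itgb2 at -1.11 and Ncf1 at -1.07 lie farthest to the left, and Plcg1, Vav2 and Gsn are the filled points to the right of 0.

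Of 4 Fc receptors for other immunoglobulin classes on the list that were on the array, none was significantly lower, and *Fcer2*, the low affinity IgE receptor, was higher by 0.12 ± 0.07 (limma over genes, adjusted p = 0.00313). *Fcer1a* (0.10) and *Ms4a2* (-0.04), chains of the high affinity IgE receptor, and *Pigr* (0.02) did not pass, where *Pigr* was well above background on only 2 arrays. *Fcar*, a receptor of IgA outside the list and chosen after its value was seen, was lower by -0.06 ± 0.05 in 11 of 12 rats (adjusted p = 0.0162). The single immunoglobulin gene found, the J chain gene *Igj*, was at -0.07 ± 0.98 (adjusted p = 0.890).

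Of 12 genes known to regulate Fc receptor expression, 3 were lower and 9 did not pass, where 7.59% of all genes were lower and 8.65% higher. *Spi1*, which encodes the myeloid transcription factor PU.1, was lower by -0.67 ± 0.35 and *Cebpb* by -0.26 ± 0.22, both in 12 of 12 rats. *C5ar1*, the receptor of the complement fragment C5a, was lower by -0.90 ± 0.61 in 11 of 12 rats. *Il10* was at -0.70 ± 0.85 (adjusted p = 0.0586), *Irf1* at -0.14 ± 0.17 (adjusted p = 0.0556) and *Ifng* at -0.05 ± 0.07 (adjusted p = 0.184), which was well above background on only 2 allogeneic and 4 syngeneic samples of the 24 arrays.

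RefSeq promoter windows were found under the names *Fcgr3a*, *Fcgrt* and *Fcgr2a*, and none under *Fcgr2b*, *Fcgr1* or *Fcgr3*. The windows found were searched for the PU.1 core GAGGAA on both strands. The 250 bases before the start of *Fcgr3a* on build GRCr8 (chr13:85782386-85782635, plus strand) are shown with the match in capitals, which is TTCCTC, the core read on the opposite strand, starting 54 bases before the gene.

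Fcgr3a promoter: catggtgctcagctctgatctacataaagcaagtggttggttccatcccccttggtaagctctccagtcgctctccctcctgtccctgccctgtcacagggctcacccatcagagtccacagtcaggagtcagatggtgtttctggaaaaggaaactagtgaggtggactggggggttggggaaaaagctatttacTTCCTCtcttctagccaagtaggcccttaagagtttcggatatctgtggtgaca

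This window held 1 match, the *Fcgrt* window held 2, and the 2 windows of *Fcgr2a* held 2 and 0. A match was present in 23.3% of all 33469 windows of this length. The interferon-gamma activated motif TTCNNNGAA, present in 7.67% of windows, was found in that of *Fcgrt* only among these 4 windows. The E-box CANNTG occurred 2 times in the *Fcgr3a* window, 1 time in that of *Fcgrt* and 1 and 0 times in those of *Fcgr2a*, and in 65.5% of all windows. These matches are a description of the letters in the windows.

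The 3 low affinity receptor genes lie close together on chromosome 13. Of the other genes within 1 Mb of them in the reference table, 9 were on the array. None of these was significantly lower, *F11r* (0.26 ± 0.19) and *Uhmk1* (0.06 ± 0.06) were higher, and the median was 0.01, with values from -0.07 to 0.26. Near *Fcgr1* on chromosome 2, *Ctss* (-1.40 ± 0.61), *Txnip* (-0.37 ± 0.25), *Cers2* (-0.18 ± 0.13) and *Arnt* (-0.07 ± 0.06) were lower and *Pias3* and *Pdzk1* higher, of 10 genes on the array. Near *Fcgrt* on chromosome 1, *Nup62* (-0.34 ± 0.17) and *Atf5* (-0.30 ± 0.33) were lower and 22 of 24 genes did not pass.

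Over all marker lists 13 of 59 genes were significantly lower and 7 higher, where 7.59% of all genes were lower and 8.65% higher. Macrophage and monocyte markers moved in both directions, while the NK and T cell markers that passed were all lower. The part of these cells in the receptor result was not tested. Of 12 macrophage and monocyte markers, *Ctss* and *Csf1r* (-0.22 ± 0.19) were lower, *C1qa* (0.21 ± 0.21) and *C1qc* (0.19 ± 0.21) were higher, and 8 did not pass, among them *Cd14* (0.01), *Adgre1* (-0.07) and *Cd163* (0.18). The log2 of their summed intensity ranged from 14.12 to 15.75 in syngeneic and from 14.15 to 15.36 in allogeneic explants. Such a sum is ruled by the brightest genes of a list and does not measure the number of cells. Of 9 NK cell markers 4 were lower, with *Gzmb* at -0.69 ± 0.47, *Il2rb* at -0.63 ± 0.37, *Nkg7* at -0.31 ± 0.20 and *Klrb1a* at -0.12 ± 0.11. *Ncr1* (-0.01) and *Klrk1* (-0.01) were among those that did not pass. The log2 of the summed intensity of the 9 markers ranged from 10.93 to 11.67 in syngeneic and from 10.84 to 11.49 in allogeneic explants.

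The remaining marker lists gave the following counts. Of 10 T cell markers 5 were lower, led by *Cd5* (-0.97 ± 0.84) and *Lck* (-0.70 ± 0.51). The log2 of their summed intensity was 11.79 to 12.93 in syngeneic and 11.52 to 12.49 in allogeneic explants. None of 6 B cell markers passed, and *Ms4a1* (-0.05 ± 0.82) and *Cd79b* (-0.02 ± 0.58) varied widely between rats. Of 5 neutrophil markers *Cxcr2* was higher by 0.15 ± 0.14, and *S100a9* was at -0.42 ± 1.09 (limma over genes, adjusted p = 0.378). Of 5 dendritic cell markers *Cd83* (-0.64 ± 0.50) and *Cd80* (-0.10 ± 0.07) were lower and *Flt3* was higher by 0.07 ± 0.05. Neither of 2 mast cell and none of 3 keratinocyte markers passed, and *Col1a2* (0.55 ± 0.40), *Cdh5* (0.33 ± 0.12) and *Pecam1* (0.17 ± 0.13) were higher among 7 fibroblast and endothelial markers. Not every marker was measured well, since *Klrc1*, *Cr2*, *Cd28*, *Fpr1* and *Cd80* were well above background in at least 1 of the samples on fewer than 12 of the 24 arrays.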

How the data were processed

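The authors deposited 1 scanner file per two-color array and a series table of log2 ratios whose direction, centring and background treatment are not stated. Per the file headers, Feature Extraction 9.5.1.1 (the methods name an earlier version) extracted the deposited mean and local background intensity of each spot without normalization, and the deposited processed intensity was background-subtracted and dye-normalized by the software. The labels and the methods name different amplification kits. Each column of the series table was set against the log ratio (allogeneic to syngeneic) computed from the processed signals of its array, which gave r = 0.70 to 0.96, with medians from -0.03 to 0.05, and were taken as already turned.

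In R 4.3.3 with limma 3.58.1, intensities were corrected by normexp (offset 50) and normalized by loess within arrays. Control spots and outlier flags were removed and ratios of dye-swapped arrays received the opposite sign. Means were then taken over replicate spots, and over both arrays of each rat, since these hold the same RNA, to give 1 replicate. Ratios were tested against 0 by limma with Benjamini-Hochberg adjustment over 8453 probes, or over 7249 genes by the mean of their probes. Both samples of a rat share each array, so that the comparison is within rats. Rats are separate animals, and their number limits the precision. Channel levels came from loess and Aquantile normalization and are not comparable between genes. On simulated data (8453 probes, 12 rats), 97% of probes changed by 1 and 100% of those changed by 2 on the log2 scale were called, and 3.90% of calls were false. The simulated noise was drawn independently for each probe and rat, without deviations shared over a whole rat. These rates therefore need not hold for the real arrays.

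The named genes were all members, the significant genes of each list (at most 6, the largest), signalling genes of known role that did not pass, the 8 genes most like the members among those well above background on at least 12 arrays, and genes within 1 Mb. The members and lists were chosen with earlier results of these data known. Alternatives concerned background, normalization, outlier and dim spots, dye orientation, slide, test, series table, rat 10, the sign of rat 5 and leaving out each rat. Leaving out rat 8 together with the first array of rat 10 was added after seeing the data. Columns holding the software's own log ratios and p-values were not used. Some genes of the lists are counted but not reported here by name.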

Additional observations from a re-analysis of the deposited data

Results flagged for a closer look

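The log2-fold change differed between the dye orientations for 4 of the 5 member genes (limma on the difference within rats, adjusted over 7249 genes), as it did for 52% of all genes. Arrays with the allogeneic sample in Cy5 minus those with it in Cy3 gave 0.51 ± 0.56 for *Fcgr3a* (adjusted p = 0.00650), 0.27 ± 0.08 for *Fcgr2b* (2.52e-06) and 0.19 ± 0.07 for *Fcgr3* (2.91e-05), each higher in Cy5 in 12 of 12 rats. For *Fcgrt* the difference was -0.12 ± 0.14 (0.0225). For *Fcgr3a*, *Fcgr2b* and *Fcgr3* the decrease was present in both orientations, and the mean over both, as reported, cancels a dye effect that is equal in each. For *Fcgr1* the difference was 0.08 ± 0.25 (adjusted p = 0.293).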

How the results depend on the processing

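Of 717 results under alternatives, 653 kept their direction and side of the threshold, or for counts stayed within 1.5 times. The 7 lower member probes were called without any 1 of the 12 rats, with 1155 to 2087 probes called over the array, the highest without rat 8. Slides 1, 2 and 3 alone (4 rats each) gave 195, 7 and 281 probes over the array, 3, 1 and 1 member probes, all lower, 3, 1 and 3 signalling genes and 2, 1 and 8 markers, against 1459, 7, 19 and 20 with all rats. *Fcgr3a* passed on each slide, while *Fcgr2b* (-0.87, -0.70, -1.41), *Fcgr3* (-0.82, -1.06, -1.003), the *LOC498277* probes (-0.87, -1.12, -1.07) and *Fcgr1* (-0.33, -0.73, -0.50) kept their sign and did not pass. Pair differences were not run within slides, where 4 rats cannot reach the threshold. With the sign of rat 5 turned, a choice made with earlier results known, 0 probes, members, signalling genes and markers passed. *Fcgr3a* was then at -1.81 (limma, adjusted p = 0.0824), *Fcgr2b* at -0.82, *Fcgr3* at -0.78 and the *LOC498277* probes at -0.83. As labelled, rat 5 had a median r of 0.69 with the other rats, the highest of the 12. Turning a rat that follows the others shrinks the means and widens the spread, so fewer calls follow from the setting itself.

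Allogeneic RNA in Cy5 only gave 2659 probes over the array and in Cy3 only 2500. Without rat 8 and with rat 10 by its second array, an alternative chosen after seeing the data, there were 2231. *Fcgrt*, never called, changed sign with Cy3 only (0.0207), on slide 1 (0.10) and in that last alternative (0.0122). The difference *Fcgr2b* minus *Fcgr3* changed sign with Cy5 only (0.0025) and without rat 9, 11 or 12, ranging from -0.22 to 0.0144 over the left-out rats, and passed only in the 2 alternatives that left out rat 8. *Fcgr1* minus *Fcgr2b* (0.47) passed with a replicate block for rat over 24 arrays (adjusted p = 0.0119), and also by median centring, with Cy3 only, by the exact signed-rank test and in the 2 alternatives without rat 8. The block changed none of the calls of the member genes (*Fcgr3a* -2.19, *Fcgr2b* -0.99) and gave 1636 probes over the array. The cause of these shifts was not tested.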
